A study of Arabidopsis thaliana with 28 samples.

Results

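The genes of jasmonate synthesis and the pair of VSP genes studied here, 10 of the 33602 genes in the tables, were followed by their TPM (a level scaled for gene length and library size) in 28 RNA sequencing libraries of whole Arabidopsis thaliana seedlings. They were taken by gene identity, with no threshold on a measured value. The members are the 13-lipoxygenase genes LOX2, LOX3 and LOX4, the allene oxide synthase gene AOS, the allene oxide cyclase genes AOC1, AOC2 and AOC3, the OPDA reductase gene OPR3, and the vegetative storage protein genes VSP1 and VSP2. All 10 reached 1 TPM in 2 or more libraries, the condition for being tested, as did 21031 genes in all.

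The seedlings were 7 d old and grew in long days of 16 h light and 8 h dark. ZT is the number of hours since lights on. They belonged to a pif7 mutant, whose allele the labels do not name, or to the wild type Col-0. PIF7 is a transcription factor of the phytochrome-interacting family that acts in elongation growth in shade and in warm days. Each genotype was grown under an oscillating regime, at 27 °C between ZT4 and ZT12 and at 17 °C for the rest of the day, or at a constant 17 °C. All oscillating libraries carry the label 27 °C, at whatever time they were taken, so the course of temperature through the day comes from the growth protocol. One library was made for each genotype, regime and time (ZT0, ZT4 and ZT5, then ZT8, ZT12, ZT16 and ZT20), so no condition had a replicate. ZT5, ZT8 and ZT12 are called the warm window here.

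Jasmonates are hormones of wounding, insect attack and fertility. Lipoxygenases add oxygen to linolenic acid in the plastid, AOS and the AOC enzymes turn the product into the cyclic precursor OPDA, and OPR3 reduces that precursor in the peroxisome before its side chain is shortened to jasmonic acid. The conjugate of jasmonic acid with isoleucine binds the receptor COI1 together with JAZ repressors, which are then degraded, and this frees MYC2 and related transcription factors. The genes of synthesis, the JAZ genes and the VSP genes are themselves induced by the hormone, and VSP2 is a common marker of the response in leaves.

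The depth derived from the tables ran between 1.32 and 2.82 gigabases a library, with a median of 2.08 in the 14 pif7 libraries and 1.85 in the 14 Col-0 libraries. PIF7 itself ran from 1.91 to 13.1 TPM in pif7 and from 8.42 to 38.6 TPM in Col-0, with the pif7 library the lower one in 14 of 14 pairs of the same time and regime. All 14 root markers and all 6 leaf mesophyll markers were above 0 in each combination of genotype and regime. The summed root markers had medians of 119 TPM in pif7 oscillating, 113 in pif7 constant, 158 in Col-0 oscillating and 125 in Col-0 constant, and the summed leaf markers had medians of 16584, 18875, 16820 and 19286 TPM in the same order, with ranges that overlapped between all 4 for both. In whole seedlings, fewer cells of a type and less RNA per cell cannot be told apart.

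The Col-0 library of the constant regime at ZT5 stood apart for some of the jasmonate genes, and the members' counts that rest on it are also given below without the Col-0 ZT5 pair, that is, the 2 Col-0 libraries of ZT5. Of the 10 members, 6 had their highest level of all 28 libraries there, against 4.4% of all genes tested. LOX3 had 2.97 TPM in the pif7 library of that regime and time and 26.1 TPM in the Col-0 library, 5.02 times the next highest of all libraries. LOX4 had 1.43 TPM in pif7 and 9.71 TPM in Col-0, 4.17 times the next highest. OPR3 had 16.9 TPM in pif7 and 118 TPM in Col-0, 2.68 times the next highest. AOC3 had 4.43 TPM in pif7 and 33.3 TPM in Col-0, and AOC1 had 21.5 TPM in pif7 and 72.2 TPM in Col-0, which were 2.66 and 2.32 times the next highest. VSP1 had 2.61 TPM in pif7 and 5.59 TPM in Col-0, 1.14 times the next highest. Beyond the members, 9 of 13 JAZ genes, 8 of 12 genes of jasmonate conjugation and breakdown and 5 of 18 early wound and touch genes also had their highest level in this Col-0 library. The same held for 1 of 13 other synthesis genes, 1 of 7 genes of perception and transcription and 0 of 7 other jasmonate-responsive genes. The oscillating Col-0 library of ZT5 held the highest level of 5 of the 18 wound and touch genes as well. In the Col-0 constant ZT5 library JAZ8 was at 8.22 TPM, against at most 0.585 in the other libraries. JAZ5 was at 16.1 TPM in it, against at most 1.78. RRTF1, an early wound gene singled out after its values were seen, was at 9.63 TPM, against at most 0.472 in the other libraries. The depth of this Col-0 constant library was 1.85 gigabases. In it 4 of 14 root markers and 1 of 6 leaf markers were also at their highest. The part of handling, depth or tissue in these levels was not tested.

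**Figure D1:**
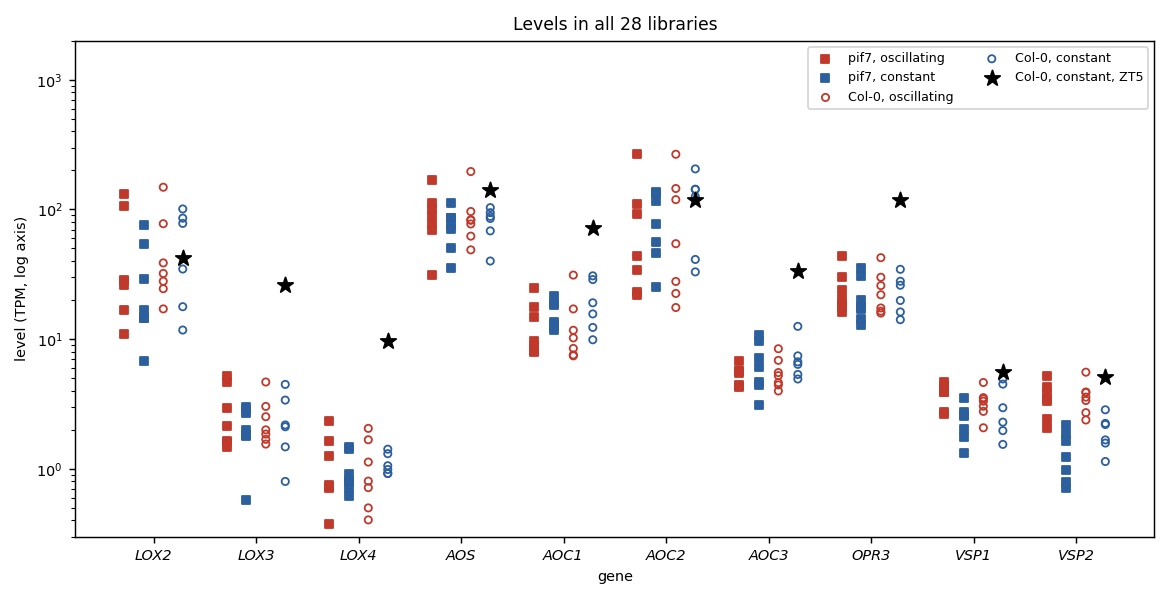
Level of each gene (TPM, log axis) in all 28 libraries, with pif7 as filled squares, Col-0 as open circles, the oscillating regime in red and the constant regime in blue. The star is the Col-0 constant library of ZT5, which lies above the other 27 for LOX3, LOX4, AOC1, AOC3, OPR3 and VSP1.

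The members spanned a wide range of levels. By the median over the 28 libraries, AOC2 and AOS came first at 84.5 and 84.2 TPM, and these neighbours overlapped over most of their ranges. LOX2 at 28.8, OPR3 at 20.1 and AOC1 at 13.2 TPM followed, then AOC3 at 5.58, VSP1 at 2.995, VSP2 at 2.39, LOX3 at 2.12 and LOX4 at 0.919 TPM. Each of these neighbours in the order overlapped with the next. The VSP genes, LOX3 and LOX4 were thus low in these seedlings. Their log2 differences (on log2 of the rescaled TPM plus 1) understate their fold changes. LOX4 reached 1 TPM in 12 of 28 libraries, VSP2 in 25 and LOX3 in 26.

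LOX2 (AT3G45140, chr3:16525410-16529352, plus strand, in TAIR10 as the tables give it) encodes the plastid lipoxygenase that supplies most of the jasmonate of wounded leaves. In the order of the 7 times, it had 16.8, 27.8, 28.7, 10.96, 26, 131 and 107 TPM in pif7 oscillating and 6.79, 14.6, 14.6, 16.7, 54.1, 75.5 and 28.9 TPM in pif7 constant. In Col-0 it had 24.5, 32.1, 27.9, 17.1, 38.7, 148 and 77.6 TPM in oscillating and 17.8, 11.7, 42.2, 34.7, 78.02, 85.6 and 101 TPM in constant. The highest levels stood at ZT16 in both genotypes of the oscillating regime, 4 h after the return to 17 °C, and the lowest at ZT8, so that LOX2 was 12.0 times as high at ZT16 as at ZT8 in pif7 and 8.68 times in Col-0. In the constant regime the levels at ZT12 and ZT16 lay above those from ZT0 to ZT8 in both genotypes, with the highest value at ZT16 in pif7 and at ZT20 in Col-0. Over the 7 times the medians were 27.8 TPM in pif7 oscillating, 16.7 in pif7 constant, 32.1 in Col-0 oscillating and 42.2 in Col-0 constant, with overlapping ranges throughout.

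LOX3 (AT1G17420, chr1:5977411-5981480, plus strand) and LOX4 (AT1G72520, chr1:27308515-27312754, plus strand) encode close relatives that act together in male fertility. Their coding sequences were 80.7% identical in RefSeq, and no stretch of 75 bases was shared between their transcripts. LOX3 had 1.61, 2.14, 1.48, 1.65, 2.94, 5.20 and 4.65 TPM in pif7 oscillating and 0.579, 1.78, 2.97, 2.003, 2.83, 2.67 and 1.83 TPM in pif7 constant. The Col-0 libraries had 1.995, 3.02, 1.69, 1.55, 1.85, 4.67 and 2.52 TPM in oscillating and 0.798, 1.47, 26.1, 4.47, 3.38, 2.18 and 2.11 TPM in constant. The single high value was that of Col-0 constant at ZT5, and every other library lay at or below 5.20 TPM. LOX4 ran between 0.375 and 2.33 TPM with a median of 0.751 in pif7 oscillating and between 0.620 and 1.46 TPM with a median of 0.7999 in pif7 constant. In Col-0 it ran between 0.403 and 2.05 TPM with a median of 0.803 in oscillating and between 0.919 and 9.71 TPM with a median of 1.06 in constant. Outside the Col-0 constant ZT5 library, LOX4 was highest at ZT16 of the oscillating regime, at 2.33 TPM in pif7 and 2.05 TPM in Col-0.

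The upstream sequences of LOX2 and LOX3 are shown because they were the members with a CACATG motif, one of the elements that phytochrome-interacting factors are known to bind, within 250 bases upstream of the RefSeq transcript start (assembly TAIR10.1, both strands searched, so that CATGTG also counts). Capitals mark the motif. It was found in 2 of the 10 members and in 11.2% of the 20002 protein-coding genes tested, and it does not overlap the CACGTG element searched for beside it.
LOX2, chr3:16524995-16525244, plus strand: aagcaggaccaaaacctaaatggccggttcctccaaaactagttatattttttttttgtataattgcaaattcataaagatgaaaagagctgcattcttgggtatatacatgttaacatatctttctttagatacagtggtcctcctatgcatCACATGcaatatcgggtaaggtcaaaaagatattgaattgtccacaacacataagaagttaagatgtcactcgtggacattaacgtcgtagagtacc
LOX3, chr1:5977073-5977322, plus strand: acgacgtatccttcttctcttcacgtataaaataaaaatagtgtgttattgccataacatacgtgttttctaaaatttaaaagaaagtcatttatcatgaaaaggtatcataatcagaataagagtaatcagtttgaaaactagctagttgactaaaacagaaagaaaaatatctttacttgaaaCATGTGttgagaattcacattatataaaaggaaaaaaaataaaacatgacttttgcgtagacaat
The motif starts 97 bases before the transcript start in LOX2 and 65 bases before it in LOX3. GAANNTTC, a core of the heat shock element, was found in the same window only in LOX4, 112 bases before the start, against 9.20% of the protein-coding genes tested.

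AOS (AT5G42650, chr5:17097595-17099395, minus strand) encodes the enzyme that commits the lipoxygenase product to the jasmonate branch. It had 31.2, 89.5, 77.7, 68.97, 99.9, 169 and 112 TPM in pif7 oscillating and 35.6, 75.4, 85.7, 70.3, 85.8, 112 and 50.04 TPM in pif7 constant. Col-0 seedlings had 48.8, 82.5, 62.2, 77.2, 83.2, 196 and 96.4 TPM in oscillating and 40.01, 68.3, 142, 85.2, 94.4, 103 and 88.4 TPM in constant. The lowest value of each series stood at ZT0, and ZT16 held the highest value in 3 of the 4 series, the exception being Col-0 constant with its ZT5 library. AOS was the one member with the palindromic G-box CACGTG, which phytochrome-interacting factors and MYC2 are both known to bind, in the 250 bases upstream of its RefSeq start, against 7.51% of the protein-coding genes tested. The sequence is printed to show its place, the last 6 bases of the window, in capitals.
AOS, chr5:17099596-17099845, minus strand: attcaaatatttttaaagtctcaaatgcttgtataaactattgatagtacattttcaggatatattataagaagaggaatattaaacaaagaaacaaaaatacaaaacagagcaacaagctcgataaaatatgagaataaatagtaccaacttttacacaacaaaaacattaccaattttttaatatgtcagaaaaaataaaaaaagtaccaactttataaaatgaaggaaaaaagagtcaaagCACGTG

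AOC1 (AT3G25760, chr3:9403883-9405250, plus strand), AOC2 (AT3G25770, chr3:9406873-9407955, plus strand) and AOC3 (AT3G25780, chr3:9409290-9410567, plus strand) lie side by side, with 1622 bases between AOC1 and AOC2 and 1334 between AOC2 and AOC3. Each encodes an allene oxide cyclase, the step that sets the stereochemistry of OPDA. The coding sequences of AOC1 and AOC2 were 90.3% identical, those of AOC1 and AOC3 82.7% and those of AOC2 and AOC3 82.4%, and no stretch of 75 bases was shared between the transcripts of any pair. Reads within shorter identical stretches could still be split between AOC1 and AOC2 by the counting. AOC2 had 23.1, 34.4, 21.7, 43.8, 110.3, 267 and 92.4 TPM in pif7 oscillating and 25.1, 46.2, 76.6, 116, 137, 134 and 55.8 TPM in pif7 constant. In Col-0 it had 27.8, 22.5, 17.5, 54.4, 145, 266 and 119 TPM in oscillating and 32.97, 41.1, 118, 143, 126, 143 and 205 TPM in constant. At ZT5 and ZT8 both oscillating libraries lay below both constant libraries, and at ZT16 both lay above them. AOC1 had 8.16, 17.6, 9.72, 8.79, 7.96, 24.7 and 14.7 TPM in pif7 oscillating and 12.6, 18.8, 21.5, 12.9, 13.5, 18.2 and 11.7 TPM in pif7 constant. Its levels in Col-0 were 8.47, 17.1, 7.55, 7.43, 10.2, 31.2 and 11.7 TPM in oscillating and 9.88, 19.1, 72.2, 28.8, 12.3, 15.6 and 30.7 TPM in constant. At ZT5, ZT8 and ZT12 the oscillating library lay below the constant one in both genotypes. AOC3 ran between 4.31 and 6.77 TPM with a median of 5.45 in pif7 oscillating, between 3.11 and 10.8 TPM with a median of 6.06 in pif7 constant, between 3.98 and 8.43 TPM with a median of 5.23 in Col-0 oscillating and between 4.92 and 33.3 TPM with a median of 6.67 in Col-0 constant, and was lower in oscillating than in constant at ZT16 in both genotypes, unlike its neighbours.

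The upstream sequences of AOC1 and AOC2 are shown because these neighbours moved together in the warm window below. Capitals mark the 1 run of 12 or more bases that both share on the same strand, 19 bases long.
AOC1, chr3:9403529-9403778, plus strand: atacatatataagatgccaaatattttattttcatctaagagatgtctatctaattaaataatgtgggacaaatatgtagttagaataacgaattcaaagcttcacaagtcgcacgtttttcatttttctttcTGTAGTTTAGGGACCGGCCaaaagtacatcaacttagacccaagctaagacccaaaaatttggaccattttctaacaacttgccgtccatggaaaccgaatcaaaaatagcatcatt
AOC2, chr3:9406419-9406668, plus strand: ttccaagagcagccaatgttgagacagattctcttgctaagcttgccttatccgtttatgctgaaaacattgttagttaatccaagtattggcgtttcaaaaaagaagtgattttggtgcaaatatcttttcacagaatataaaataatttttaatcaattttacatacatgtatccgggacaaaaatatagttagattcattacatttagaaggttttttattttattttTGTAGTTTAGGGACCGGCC
None of the motifs searched was found in either window.

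OPR3 (AT2G06050, chr2:2359114-2362302, minus strand) encodes the peroxisomal reductase that acts after OPDA. It ran between 16.1 and 43.9 TPM with a median of 20.3 in pif7 oscillating and between 12.8 and 35.1 TPM with a median of 17.7 in pif7 constant. In Col-0 it ran between 15.9 and 42.4 TPM with a median of 21.96 in oscillating and between 14.1 and 118 TPM with a median of 26.02 in constant. Apart from the Col-0 constant ZT5 library at 118 TPM, the 4 series followed each other closely, and each was at its highest at ZT16, at 43.9 TPM in pif7 oscillating, 35.1 in pif7 constant, 42.4 in Col-0 oscillating and 34.5 in Col-0 constant.

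**Figure D2:**
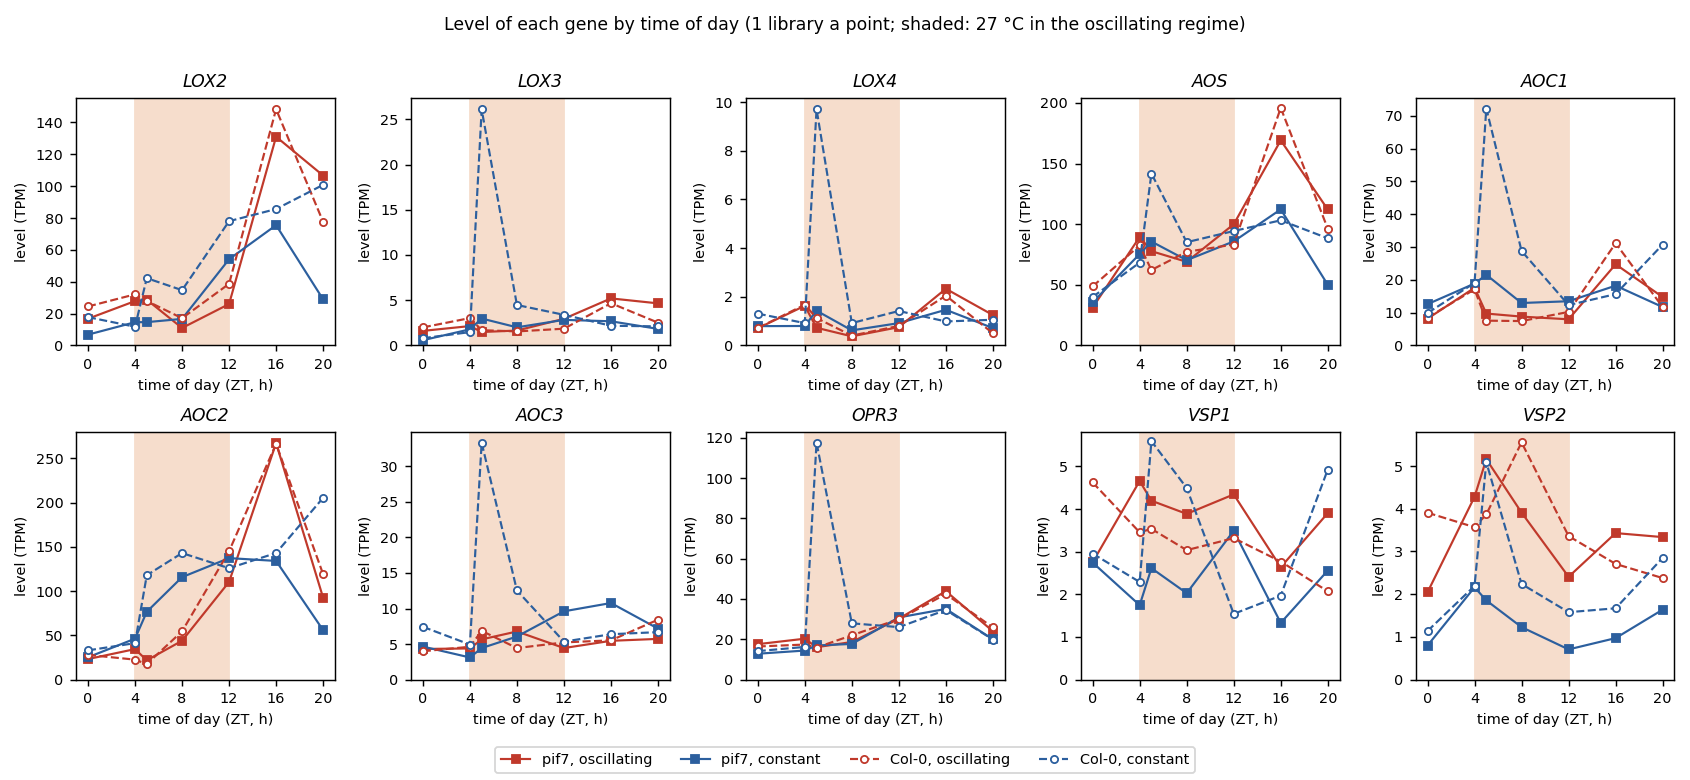
Level (TPM) of each gene against time of day (ZT, h), with pif7 as filled squares and solid lines, Col-0 as open circles and dashed lines, the oscillating regime in red, the constant regime in blue, and the 27 °C part of the oscillating regime shaded. Each point is 1 library. LOX2, AOS and AOC2 reached their highest oscillating values at ZT16, and VSP2 lay higher in oscillating than in constant at most times.

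VSP2 (AT5G24770, chr5:8500476-8502224, minus strand) encodes a vegetative storage protein with phosphatase activity and a known role in defence against insects. It had 2.04, 4.28, 5.16, 3.91, 2.41, 3.43 and 3.34 TPM in pif7 oscillating and 0.797, 2.16, 1.85, 1.23, 0.706, 0.970 and 1.64 TPM in pif7 constant. In Col-0 it had 3.91, 3.57, 3.87, 5.56, 3.36, 2.71 and 2.38 TPM in oscillating and 1.14, 2.19, 5.09, 2.24, 1.58, 1.67 and 2.85 TPM in constant. The oscillating library was the higher one in 12 of 14 pairs of the same genotype and time, the exceptions being Col-0 at ZT5 and at ZT20. VSP1 (AT5G24780, chr5:8507590-8508957, minus strand), its neighbour 5365 bases away, had 2.75, 4.66, 4.20, 3.89, 4.34, 2.64 and 3.90 TPM in pif7 oscillating and 2.74, 1.75, 2.61, 2.03, 3.49, 1.33 and 2.56 TPM in pif7 constant. The Col-0 levels were 4.62, 3.45, 3.53, 3.04, 3.32, 2.77 and 2.07 TPM in oscillating and 2.95, 2.29, 5.59, 4.49, 1.54, 1.97 and 4.93 TPM in constant. VSP1 was higher in oscillating in 11 of 14 pairs by TPM and in 10 of 14 after rescaling, and the ranges of the 4 series overlapped. The coding sequences were 89.5% identical, with no shared stretch of 75 bases.

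The upstream windows of VSP1 and VSP2 are shown because the 2 genes are near copies of which VSP2 alone passed the tests below. Capitals mark the 4 runs of 12 or more bases that both share on the same strand, 66 bases in all, the longest of 23.
VSP1, chr5:8509202-8509451, minus strand: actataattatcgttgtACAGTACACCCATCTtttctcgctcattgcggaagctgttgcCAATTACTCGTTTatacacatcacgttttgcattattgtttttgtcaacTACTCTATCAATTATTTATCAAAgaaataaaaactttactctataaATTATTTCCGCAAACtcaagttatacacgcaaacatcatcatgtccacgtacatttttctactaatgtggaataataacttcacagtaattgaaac
VSP2, chr5:8502225-8502474, minus strand: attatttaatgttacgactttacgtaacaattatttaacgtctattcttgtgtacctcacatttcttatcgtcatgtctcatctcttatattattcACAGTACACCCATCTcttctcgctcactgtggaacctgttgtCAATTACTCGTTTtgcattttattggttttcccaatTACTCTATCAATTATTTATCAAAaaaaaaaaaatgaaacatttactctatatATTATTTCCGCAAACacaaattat

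In the warm window, 4 of the 10 members were lower in the oscillating than in the constant regime over both genotypes and 1 was higher. Of all genes tested, 8.97% were lower and 10.4% higher by the same rule, a Benjamini-Hochberg adjusted p under 0.05 in limma over all genes. AOC1 fell by 1.23 ± 0.30 (log2 ± SE of the fit, adjusted p = 0.0125 in limma), with the oscillating library lower in 6 of 6 pairs. AOC2 fell by 1.21 ± 0.32 (limma adjusted p = 0.0181), lower in 5 of 6 pairs. LOX3 fell by 0.97 ± 0.25 (limma adjusted p = 0.0172), lower in 5 of 6 pairs, and LOX4 by 0.67 ± 0.22 (limma adjusted p = 0.0446), lower in 6 of 6. VSP2 rose by 0.79 ± 0.18 (limma adjusted p = 0.00886), higher in 5 of 6 pairs. With 1 library a condition, p measures how constant a difference was over times and genotypes, not the spread between pools of seedlings. The other members did not pass, with differences of -0.66 for AOC3, -0.53 for LOX2, -0.49 for OPR3, -0.23 for AOS and 0.21 for VSP1. The median over the 10 members was -0.59, beside -0.0045 over all genes tested.

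With the Col-0 ZT5 pair left out, 3 members passed in the warm window, beside 18.2% of all genes in either direction. VSP2 rose by 0.99 ± 0.17 (limma adjusted p = 0.00268), LOX3 fell by 0.57 ± 0.16 (limma adjusted p = 0.0242) and AOC1 fell by 0.89 ± 0.28 (limma adjusted p = 0.0420). AOC2 was at -0.87 ± 0.30 (limma adjusted p = 0.0622), LOX4 at -0.36 ± 0.16 (limma adjusted p = 0.143) and OPR3 at -0.04 ± 0.11 (limma adjusted p = 0.856). The median of the members was then -0.39. Without all libraries of ZT8, none of the 10 passed, beside 5.96% of all genes in either direction, and VSP2 was at 0.67 (limma adjusted p = 0.103), AOC1 at -1.22 (limma adjusted p = 0.0891), AOC2 at -1.08 (limma adjusted p = 0.147), LOX3 at -1.10 (limma adjusted p = 0.0669) and LOX4 at -0.81 (limma adjusted p = 0.1001). Without ZT5 in both genotypes 2 passed, beside 18.4% of all genes: LOX2 fell by 0.90 (limma adjusted p = 0.0199) and VSP2 rose by 0.97 (limma adjusted p = 0.00599), while LOX3 was at -0.47 (limma adjusted p = 0.0628), AOC1 at -0.83 (limma adjusted p = 0.0880), AOC2 at -0.72 (limma adjusted p = 0.148) and LOX4 at -0.31 (limma adjusted p = 0.257). Without ZT12, VSP2 was at 0.73 (limma adjusted p = 0.0649). LOX4 also missed the threshold without ZT0, ZT4, ZT16 or ZT20, at an unaltered difference of -0.67 and limma adjusted p values of 0.0542, 0.0552, 0.0596 and 0.0642.

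**Figure D3:**
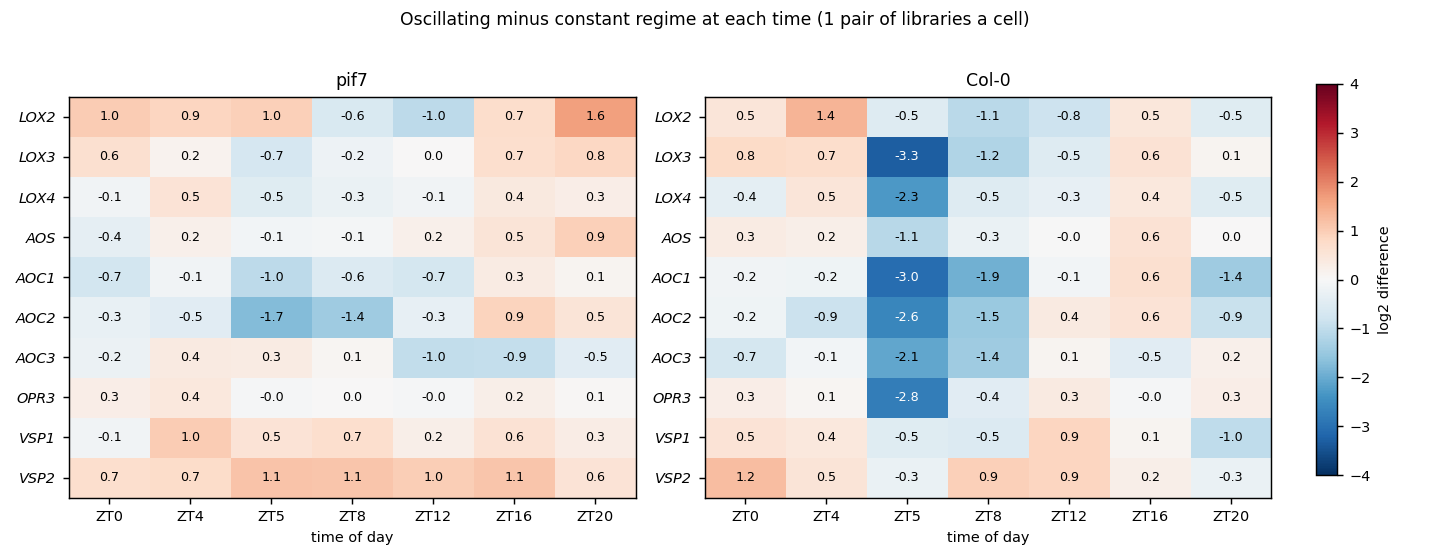
Log2 difference of the rescaled TPM plus 1, oscillating minus constant regime, for each gene (rows) and time (columns) in pif7 and Col-0. Each cell is 1 pair of libraries, so no cell has an error. Blue cells at ZT5 and ZT8 mark lower levels in the oscillating regime, deepest in Col-0 at ZT5, and most cells at ZT16 are red.

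Time by time, the members were counted by the sign of the regime difference after rescaling. At ZT0, 4 members were higher in the oscillating regime in both genotypes (LOX2, LOX3, OPR3 and VSP2), beside 25.2% of all genes, and 4 were lower in both (LOX4, AOC1, AOC2 and AOC3), beside 21.1%. At ZT4, 7 were higher in both, beside 30.2% of all genes, and 2, AOC1 and AOC2, were lower in both, beside 29.2%. At ZT5, 0 were higher in both, beside 36.6% of all genes, and 6 were lower in both (LOX3, LOX4, AOS, AOC1, AOC2 and OPR3), beside 34.1%. ZT8 had 1 member, VSP2, higher in both, beside 35.3% of all genes, and 6 lower in both (LOX2, LOX3, LOX4, AOS, AOC1 and AOC2), beside 37.6%. ZT12, the last time of the warm window, had 2 higher in both (VSP1 and VSP2), beside 32.9%, and 3 lower in both (LOX2, LOX4 and AOC1), beside 30.9%. At ZT16, 8 were higher in both, all except OPR3 and AOC3, beside 37.4% of all genes, and 1 member, AOC3, was lower in both, beside 34.3%. OPR3 was higher in both by TPM at ZT16 but at -0.04 in Col-0 after rescaling. At ZT20, 3 were higher in both (LOX3, AOS and OPR3), beside 26.8% of all genes, and 0 were lower in both, beside 27.7%. Counted in both genotypes, the lower members thus outnumbered the higher ones most at ZT5 and ZT8. The higher ones outnumbered the lower most at ZT16 and ZT4. In Col-0 alone, 10 of 10 were lower at ZT5 (median -2.18), where the constant library stood apart, and 9 at ZT8 (median -0.82). In pif7 alone, 6 of 10 were lower at ZT5 (median -0.079) and 6 at ZT8 (median -0.15). Of all genes, 48.7% were lower in Col-0 at ZT5 and 51.3% at ZT8, and 48.7% were lower in pif7 at ZT5 and 50.8% at ZT8. LOX2 at ZT16 had 131 TPM in pif7 oscillating against 75.5 in pif7 constant, and 148 TPM in Col-0 oscillating against 85.6 in Col-0 constant. AOC2 had 267 TPM in pif7 oscillating against 134 in pif7 constant, and 266 TPM in Col-0 oscillating against 143 in Col-0 constant. A single time has 1 pair a genotype and was not tested by itself.

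Taken by genotype, 1 member passed in pif7 and 2 in Col-0. In pif7, VSP2 rose by 1.07 ± 0.26 (limma adjusted p = 0.0356), higher in 3 of 3 pairs, beside 2.34% of all genes that rose and 1.4% that fell. Leaving out ZT4, ZT5, ZT8, ZT12 or ZT16 each ended that call, with VSP2 between 1.05 and 1.12 and limma adjusted p of 0.0569, 0.0586, 0.201, 0.132 and 0.0526. In Col-0, LOX3 fell by 1.66 ± 0.36 (limma adjusted p = 0.0209) and AOC1 by 1.69 ± 0.43 (limma adjusted p = 0.0399), each lower in 3 of 3 pairs, beside 1.67% of all genes that fell and 2.73% that rose. With the Col-0 ZT5 pair left out, neither passed, beside 1.25% of all genes that fell: LOX3 was at -0.85 ± 0.24 (limma adjusted p = 0.0668) and AOC1 at -1.02 ± 0.43 (limma adjusted p = 0.197). Without ZT8, LOX3 was at -1.89 (limma adjusted p = 0.127) and AOC1 at -1.57 (limma adjusted p = 0.264), and AOC1 also missed the threshold without ZT0 or ZT4, with limma adjusted p of 0.0564 and 0.0631. Without ZT12, 5 members passed in Col-0 (LOX3, AOC1, AOC2, AOC3 and OPR3), beside 2.14% of all genes in either direction, and AOC2 fell by 2.06 (limma adjusted p = 0.0186).

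The difference between genotypes in the regime effect was tested directly. The effect in pif7 minus that in Col-0 passed for 0 of 10 members and for 0% of all genes in either direction in limma, while 1 member and 279 of all genes had an unadjusted p under 0.05. That member was LOX3, at 1.38 ± 0.51 (unadjusted p = 0.0165, limma adjusted p = 1.00). The difference was above 0 for 10 of 10 members and for 10760 of the 21031 genes tested, with medians of 0.67 and 0.0045. With the Col-0 ZT5 pair left out, it was above 0 for 9 of 10 members and for 10918 of the 21031 genes. The medians were then 0.21 for the members and 0.013 for all genes, LOX3 was at 0.57 ± 0.31 and AOC2 turned to -0.60 ± 0.60.

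**Figure D4:**
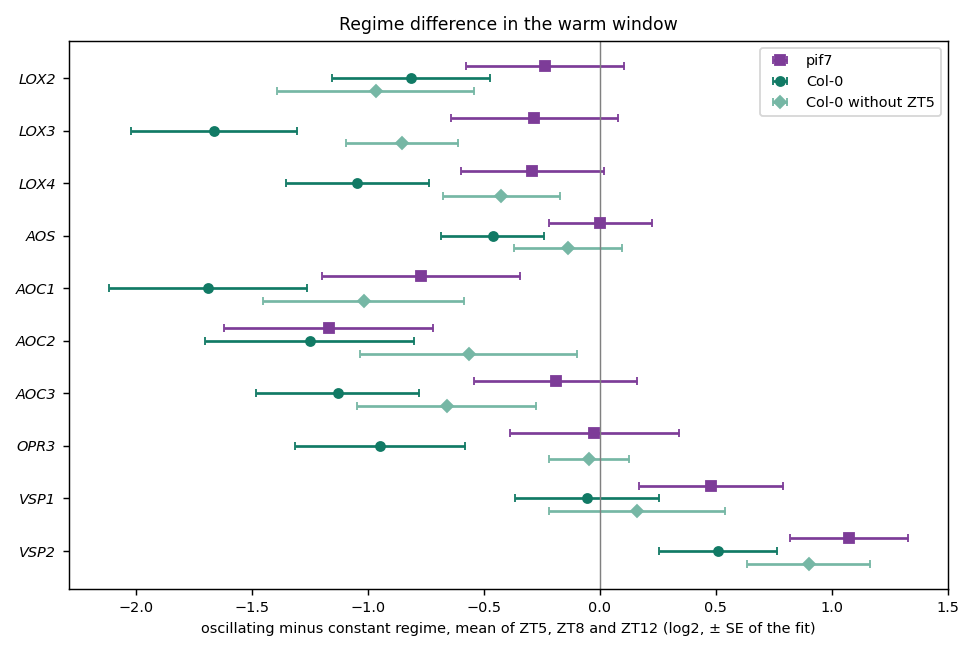
Log2 difference in the warm window, oscillating minus constant regime, with its SE from the fit, for each gene in pif7 (purple squares), in Col-0 (green circles) and in Col-0 without its ZT5 libraries (pale diamonds). Each value averages 3 pairs of libraries, or 2 pairs for the pale diamonds. Without ZT5 the Col-0 values of LOX3, LOX4, AOC1, AOC2, AOC3, OPR3 and AOS lie closer to 0.

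Outside the warm window (ZT0, ZT4, ZT16 and ZT20), 1 of the 10 members passed over both genotypes, beside 2.62% of all genes that rose and 2.7% that fell. VSP2 rose by 0.59 ± 0.16 (limma adjusted p = 0.0425), higher in 7 of 8 pairs. The call was lost without the libraries of ZT0, ZT4, ZT8, ZT16 or ZT20, with VSP2 between 0.48 and 0.74 and limma adjusted p between 0.0516 and 0.193. LOX2 was at 0.75 ± 0.21 (limma adjusted p = 0.0510) and higher in 7 of 8 pairs, the exception being Col-0 at ZT20, and it passed without ZT5 (limma adjusted p = 0.0218) or without ZT12 (limma adjusted p = 0.0439), at the same difference of 0.75. LOX3 was at 0.55 ± 0.22 (limma adjusted p = 0.152), and higher in 8 of 8 pairs. The Col-0 ZT5 pair enters here only through the spread, and without it LOX3 rose by 0.55 ± 0.12 (limma adjusted p = 0.0187) and VSP2 by 0.59 ± 0.13 (limma adjusted p = 0.0212), beside 2.92% of all genes that rose. AOS, at 0.31 ± 0.14, was higher in 7 of 8 pairs and had a limma adjusted p of 0.196. The warm window and the other times use different libraries, and the difference between their effects was not tested.

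Between the genotypes, no member passed in any of the 3 comparisons. In the constant regime 0 of 10 passed in limma, beside 0.0523% of all genes higher and 0.038% lower in pif7. There, 5 members had an unadjusted p under 0.05, as did 963 of all genes. All 10 were below 0 in pif7 minus Col-0, while 10516 of the 21031 genes tested were above 0. The median was -0.46 for the members beside 1.22e-05 over all genes. LOX2 was at -0.84 ± 0.19 (limma adjusted p = 0.276), lower in pif7 in 6 of 7 pairs. VSP2 was at -0.49 ± 0.14 (limma adjusted p = 0.719), lower in pif7 in 7 of 7 pairs by TPM and in 6 of 7 after rescaling. The median without the Col-0 ZT5 pair was -0.21, beside 0.0010 over all genes. Then 0 of 10 passed beside 0.0713% of all genes, LOX2 was at -0.73 ± 0.20 (limma adjusted p = 0.792) and VSP2 at -0.40 ± 0.14. Without ZT4, 1 member passed in the constant regime, LOX2, which fell by 1.03 ± 0.17 in pif7 (limma adjusted p = 0.0477), beside 0.0903% of all genes. These libraries of the constant regime are also the ones set against the oscillating regime above, so the 2 comparisons are not independent. In the oscillating regime 0 of 10 passed in the warm window, beside 0.0333% of all genes higher and 0.0856% lower, and 0 of 10 outside it, beside 0.0238% higher and 0.0951% lower, with no member at an unadjusted p under 0.05 in either. The medians were -0.054 and 0.0050. By contrast PIF7 fell by 1.64 ± 0.14 in the constant regime (limma adjusted p = 1.26e-05).

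**Figure D5:**
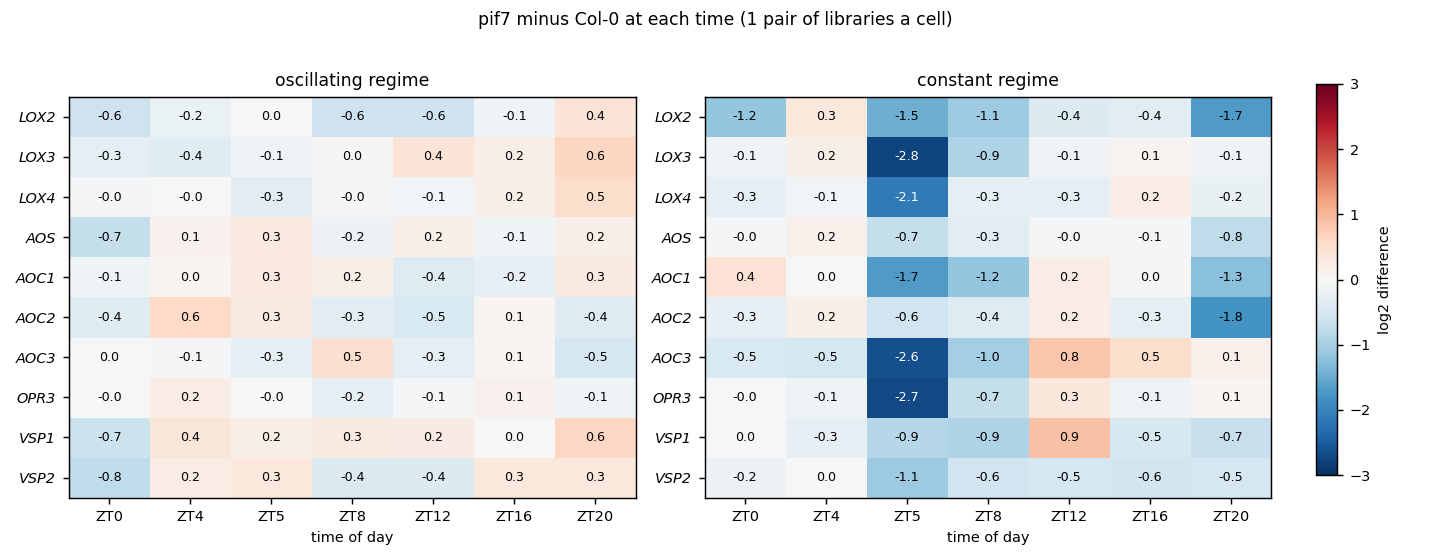
Log2 difference of the rescaled TPM plus 1, pif7 minus Col-0, for each gene and time in the oscillating and the constant regime. Each cell is 1 pair of libraries. In the constant regime all 10 genes were lower in pif7 at ZT5 and at ZT8, and in the oscillating regime the 10 genes divided 4 to 6 at ZT5 and 6 to 4 at ZT8 between lower and higher. The constant cells of ZT5 rest on the Col-0 library that stood apart. The share of all genes lower in pif7 was not counted for single pairs.

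Time of day was tested within each regime with the genotypes as repeats. In the oscillating regime 7 of 10 members changed over the day (LOX2, LOX3, LOX4, AOS, AOC1, AOC2 and OPR3), a share near the 65.7% of all genes. The smallest limma adjusted p was that of AOC2 at 1.56e-06, with 267 TPM in pif7 and 266 TPM in Col-0 at ZT16 against lowest values of 21.7 TPM in pif7 and 17.5 TPM in Col-0 at ZT5. In the constant regime 4 of 10 changed (LOX2, AOS, AOC2 and VSP2), beside 30.6% of all genes. With the Col-0 ZT5 pair left out, 5 of 10 changed in the constant regime (LOX2, LOX3, AOS, AOC2 and OPR3), beside 23.8% of all genes. Without ZT0 in both genotypes, 2 of 10 did, LOX2 and AOC2, beside 31.4% of all genes.

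Other jasmonate genes were counted from lists drawn by function, and each count in the warm window over both genotypes stands beside the 8.97% of all genes that fell and the 10.4% that rose, or the 18.2% called in either direction without the Col-0 ZT5 pair. Among other synthesis genes, 12 of 13 were tested in the warm window over both genotypes, of which 2 fell and 1 rose, shares near those of all genes. FAD8, a plastid desaturase that makes linolenic acid, fell by 0.87 ± 0.23 (limma adjusted p = 0.0199), and OPCL1, a peroxisomal acyl ligase, fell by 0.80 ± 0.22 (limma adjusted p = 0.0205). LOX6, a lipoxygenase active in roots, rose by 0.34 ± 0.11 (limma adjusted p = 0.0404). FAD8 alone still passed without the Col-0 ZT5 pair.

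Of the JAZ genes, 11 of 13 were tested and 4 fell in the warm window. JAZ1 fell by 1.25 ± 0.19 (limma adjusted p = 0.000998), JAZ10 by 1.12 ± 0.20 (limma adjusted p = 0.00220) and TIFY10B, which encodes JAZ2, by 0.65 ± 0.18 (limma adjusted p = 0.0224). JAZ1, JAZ10 and JAZ11 passed also without the Col-0 ZT5 pair. For the effect in pif7 minus that in Col-0, TIFY7, which encodes JAZ9, was at 1.37 ± 0.52 (limma adjusted p = 1.00) and at 0.66 ± 0.42 without that pair, where the median of the 11 was 0.78 with it and 0.16 without it. For pif7 minus Col-0 in the constant regime, JAZ1 was at -0.55 ± 0.19 (limma adjusted p = 0.993) and at -0.28 ± 0.11 without the pair, and the medians were -0.27 with it and -0.0046 without it.

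For conjugation and breakdown the count depended on the Col-0 ZT5 pair. Of 12 genes, 11 were tested and 3 fell in the warm window: AT2G38240 and AT5G05600, a pair of jasmonate oxidases, by 1.48 ± 0.41 and 1.13 ± 0.37 (limma adjusted p = 0.0228 and 0.0457), and CYP94C1, which oxidises the isoleucine conjugate, by 1.26 ± 0.37 (limma adjusted p = 0.0288). Leaving out the Col-0 ZT5 pair, none of these passed and 3 others rose, namely ILL6, ST2A and CYP94B1, which act in hydrolysis, sulfation and oxidation. Of 7 genes of perception and transcription, ORA59, a transcription factor of the ethylene and jasmonate responses, fell by 0.54 ± 0.14 (limma adjusted p = 0.0153), or by 0.49 ± 0.16 (limma adjusted p = 0.0452) without the pair, while MYC2 was at -0.08 ± 0.18 and MYC4 at 0.29 ± 0.18.

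Of 7 other responsive genes, 4 were tested and 2 fell in the warm window: CORI3 by 0.98 ± 0.31 (limma adjusted p = 0.0376) and CLH1, a chlorophyllase, by 0.71 ± 0.22 (limma adjusted p = 0.0349). CORI3 alone passed without the Col-0 ZT5 pair. Outside the warm window, where 2.62% of all genes rose, JR1, a lectin gene, rose by 0.44 ± 0.08 (limma adjusted p = 0.00959). HPL1, a gene of the hydroperoxide lyase family, rose there by 0.52 ± 0.14 (limma adjusted p = 0.0486). Of 18 early wound and touch genes, 17 were tested, of which TCH4, a cell wall enzyme gene induced by touch, rose by 1.19 ± 0.29 (limma adjusted p = 0.0115) in the warm window. STZ and WRKY18, transcription factors of stress and defence, fell by 0.75 ± 0.18 (limma adjusted p = 0.0118) and 0.70 ± 0.20 (limma adjusted p = 0.0252), and STZ and TCH4 passed also without the Col-0 ZT5 pair. Of the markers, 3 of 13 root genes tested and 1 of 6 leaf genes fell in the warm window over both genotypes, against 4 and 1 without the Col-0 ZT5 pair. Outside the window 0 of 13 root genes and 2 of 6 leaf genes fell, beside 2.7% of all genes, with medians of -0.11 and -0.54. The part of these markers in the members' differences was not tested.

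Genes with a like pattern were sought among 15722 genes outside the members with a mean of at least 5 TPM, so members were not compared with each other. Over the 28 libraries, which share time of day and regime, those most like LOX2 were CORI3 (Pearson r 0.863), ACHT2 (0.848), HXK2 (0.840), ALDH12A1 (0.838) and NRT1.7 (0.837). Without the Col-0 constant ZT5 library CORI3, ACHT2, HXK2 and ALDH12A1 were still among the first 5, joined by HOT5. For VSP2 they were AT1G79245 (Pearson r 0.849), AT1G61667 (0.797), CDT1 (0.786), FLA18 (0.779) and EXLA2 (0.777), of which AT1G79245, AT1G61667 and FLA18 stayed among the first 5 over the other 27 libraries. These r values are a description, with no test.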

How the data were processed

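Whole seedlings were sequenced from 28 conditions, 1 library each. HISAT2 with TAIR10 and StringTie are named for alignment and quantification per the submitters' processing notes; versions, strand setting and annotation are not given in the sources used here. Per the file headers, the authors deposited a coverage signal, an FPKM value and a TPM value per gene. In the deposited TPM column, assembled loci sum to 1000000 and the reference genes, listed again, to a little more, so it is held as another unit than standard TPM. Printed TPM values are as deposited. Coverage and FPKM gave depth only, and read counts were not used, so no counting interval is given.

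TPM was rescaled by median-ratio factors, log2(TPM + 1) was taken, and the 21031 genes that reached 1 TPM in 2 or more of the 28 libraries were fitted with limma 3.58.1 (R 4.3.3, variance trend, Benjamini-Hochberg). Regime fits paired libraries by genotype and time, genotype fits by time and regime, and the F test over times had a genotype term. Fits were tested on simulated data. The alternatives were the pseudocount, the filter, the scaling, the variance trend, fits to fewer libraries, and each time left out. The counts by list without the Col-0 ZT5 pair, for the members and the other lists, were added after seeing the data. The genes and the lists were chosen with earlier results of these data known. Named genes outside the members were PIF7, for LOX2 and VSP2 the 5 most correlated, and of each list at most 3 with the largest differences, with others named where a count of 5 or fewer needed it.

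Sequences came from RefSeq (TAIR10.1). Of 26712 protein-coding nuclear genes in both, 100% overlapped on the same chromosome, and 48.6% shared a start or end with the tables, so transcript starts can differ.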

Additional observations from a re-analysis of the deposited data

How the results depend on the processing

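Of the called regime differences of members, none changed direction under any alternative run. With a mean TPM of at least 5, which removes LOX3, LOX4, VSP1 and VSP2, 2 members passed in the warm window over both genotypes, 1 in Col-0, 0 in pif7 and 0 outside it, beside 20.1%, 4.76%, 4.01% and 5.19% of all genes. With only the pairs of each comparison the counts were 2, 0, 0 and 2, beside 11.2%, 0.00951%, 0% and 4.43%, so that hardly any gene at all passed in a single genotype. Without the 2 Col-0 libraries of ZT5 they were 3 over both genotypes, 0 in Col-0 and 2 outside the window, beside 18.2%, 3.46% and 5.81%. With no filter on low values 1 passed in Col-0, 0 in pif7 and 0 outside the window, beside 2.88%, 2.66% and 3.52%. Outside the window 0 passed with a pseudocount of 5, beside 5.17%, and 2 each without rescaling and with quantile normalization, beside 7.61% and 5.15%, LOX2 being the second; without rescaling, the median of all genes moved to 0.11 there.

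Leaving out 1 time in turn gave 0 to 5 members passing over both genotypes in the warm window, 0 to 5 in Col-0, 0 to 1 in pif7, 0 to 3 outside it, 0 to 1 for pif7 minus Col-0 in the constant regime, 2 to 5 for time of day in the constant and 6 to 8 in the oscillating regime.

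Values that turned sign had not passed, and the cause was not tested. Without the 2 Col-0 libraries of ZT5, VSP1 in Col-0 in the warm window was at 0.16, AOC2 at -0.60 for the effect in pif7 minus that in Col-0, and, for pif7 minus Col-0 in the oscillating warm window, AOC1 at -0.093 and AOC3 at 0.12. Without rescaling, AOC2 outside the window was at 0.026 and AOC3 at 0.027 for the oscillating warm genotype difference, which was 0.012 with quantile normalization, where AOS in pif7 in the warm window was at -0.039.

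With 1 time left out in turn, these uncalled values also crossed 0. In the warm window they ran from -0.52 to 0.19 for VSP1 in Col-0, and in pif7 from -0.83 to 0.17 for LOX2, -0.096 to 0.058 for AOS and -0.44 to 0.20 for AOC3. AOC2 ran from -0.32 to 0.47 for the effect in pif7 minus that in Col-0 and from -0.36 to 0.10 outside the window. For pif7 minus Col-0 in the oscillating warm window, LOX3 ran from -0.042 to 0.23, AOC1 from -0.093 to 0.25 and AOC3 from -0.26 to 0.12. For pif7 minus Col-0 in the oscillating regime outside the window, LOX2 ran from -0.30 to 0.045, LOX3 from -0.14 to 0.19, AOS from -0.24 to 0.059, AOC1 from -0.11 to 0.063, AOC2 from -0.22 to 0.11, AOC3 from -0.18 to 0.0021, OPR3 from -0.0048 to 0.11, VSP1 from -0.099 to 0.33 and VSP2 from -0.076 to 0.28. Over all alternatives and single members, 1430 values kept their side of the threshold and, where they had one, their direction. Of the rest, 56 no longer passed, 20 newly passed and 34 turned sign. The F tests over times are among these values and have no direction.

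The labels carry no replicate numbers, so no fit has a block of them. The pairs used are libraries of the same genotype and time, or of the same time and regime.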
